A study of Mus musculus with 20 samples.

Results

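The comparison described here is between mouse embryonic stem cells whose only induced CTCF carried the K365T substitution (lysine to threonine) and cells with a wild-type (WT) CTCF transgene. Its members are all regions of accessible chromatin in the deposited peak lists of K365T and WT, 311299 of the 1447820 peaks in the 10 lists of the series. The K365T list held 139580 peaks and the WT list 171719. A peak was called shared when at least 1 bp of it overlapped a peak of the other list, and otherwise K365T-only or WT-only. Accessibility was measured with Omni-ATAC, a method that tags open DNA with a transposase. The study covered 20 samples, 2 replicates for each of 9 substitutions and for WT, and asked which regions differ when the CTCF of the cell carries a given substitution.

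CTCF is a DNA-binding protein with a row of zinc fingers that read a long, directional sequence, and with cohesin it anchors chromatin loops and domain borders. From general knowledge of the protein, the lysine lies in the fourth zinc finger, among the central fingers that contact the core of the CTCF sequence. Where CTCF sits firmly, nucleosomes are displaced, so many of its sites are also open in transposase assays. Open chromatin at gene starts rests on many other factors, which is why gene starts and distant regions were described apart.

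Both groups came from the E14Tg2a line of strain 129/Ola, grown without feeder cells in serum with leukemia inhibitory factor, CHIR99021 and PD0325901. In both, the endogenous CTCF carried an auxin-inducible degron and was degraded with 500 µM of the auxin indole-3-acetic acid, while doxycycline at 1 µg/ml switched on the stable transgene, for 2 days. The K365T and WT cells therefore differed, by their labels, in the transgene. WT here is a rescued degron line and not an unmodified cell. The study set up 1 line per transgene, so a difference between lines and a difference made by the substitution cannot be told apart. The labels do not say whether the replicates were separate cultures.

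The authors deposited 1 list per genotype, and each peak name carries the codes of 2 libraries, so the replicates had been combined. The spread of replicates is thus not known, and K365T and WT could not be tested against each other. Every interval below is an exact (Clopper-Pearson) 95% interval that covers counting error over peaks only, and no difference below has a replicate check. The value given with each peak is the authors' own, read as the fold enrichment of the peak caller. It was used to rank peaks within a list and to derive a background coverage. Strength below means the rank within a list, and a percentile gives the share of the own list at or below the peak. Folds of K365T and WT are printed side by side below, but they were not put on a common scale. Read totals were not used here. An even step fitted 28.3% of the fold values in K365T and 30.5% in WT. It gave a background coverage of 3.49 in K365T and 5.96 in WT, the lowest and the highest of the 10 lists. The 2 library codes were 42 numbers apart in K365T and 28 apart in WT, and consecutive in the other 8 lists. Depth, library codes and genotype cannot be told apart.

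The numbers in the peak names run along each chromosome, and the lists skip some of them. The K365T list skipped 1800 numbers at 593 places and the WT list 2266 numbers at 690 places, for a reason not known here. A peak that lies where the other list skips numbers may have had a counterpart among them. That held for 124 of 12480 K365T-only peaks and for 461 of 48653 WT-only peaks, and it is stated below for each named peak it touches. Positions of peaks are those of mouse build mm10, counted from 1.

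The DNA of 5 differing gene start windows is shown first. They are all the searched windows called in a single list that contain the core of the CTCF sequence. A gene start window here is the stretch from 250 bp before to 50 bp after an annotated start, taken from RefSeq on build GRCm38.p6, and 32817 distinct windows were searched on both strands for a 12-letter form of the CTCF core. They were chosen after their values were seen. Each is written 5′ to 3′ on the strand of the gene, and the capitals mark the match, which at Defb36 lies on the other strand and so reads as its reverse complement. The 1 start open in K365T and not in WT was that of Cd59b, a complement regulator gene, at chr2:104070816-104071115 on the plus strand. The 4 starts open in WT and not in K365T were those of Cldn1, a tight junction gene, at chr16:26371790-26372089 on the minus strand, Gata1, a blood transcription factor gene, at chrX:7967861-7968160 on the minus strand, Defb36, a defensin gene, at chr2:152604077-152604376 on the plus strand, and Flt3l, a cytokine gene, at chr7:45136383-45136682 on the minus strand.
Cd59b: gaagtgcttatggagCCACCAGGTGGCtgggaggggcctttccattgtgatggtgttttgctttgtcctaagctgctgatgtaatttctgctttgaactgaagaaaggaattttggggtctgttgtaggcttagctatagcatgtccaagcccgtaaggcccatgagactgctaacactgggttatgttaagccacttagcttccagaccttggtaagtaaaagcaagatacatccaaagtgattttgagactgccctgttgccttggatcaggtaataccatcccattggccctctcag
Cldn1: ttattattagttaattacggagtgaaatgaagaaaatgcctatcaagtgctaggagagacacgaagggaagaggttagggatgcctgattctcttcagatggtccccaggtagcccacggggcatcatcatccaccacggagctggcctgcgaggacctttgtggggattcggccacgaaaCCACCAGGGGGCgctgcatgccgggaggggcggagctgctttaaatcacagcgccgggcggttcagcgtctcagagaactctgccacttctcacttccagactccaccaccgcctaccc
Gata1: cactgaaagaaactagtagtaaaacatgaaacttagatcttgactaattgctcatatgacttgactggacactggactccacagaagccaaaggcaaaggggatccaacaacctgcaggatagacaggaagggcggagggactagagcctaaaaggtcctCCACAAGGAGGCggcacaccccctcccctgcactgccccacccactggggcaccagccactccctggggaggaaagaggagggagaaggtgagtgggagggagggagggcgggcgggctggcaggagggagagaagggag
Defb36: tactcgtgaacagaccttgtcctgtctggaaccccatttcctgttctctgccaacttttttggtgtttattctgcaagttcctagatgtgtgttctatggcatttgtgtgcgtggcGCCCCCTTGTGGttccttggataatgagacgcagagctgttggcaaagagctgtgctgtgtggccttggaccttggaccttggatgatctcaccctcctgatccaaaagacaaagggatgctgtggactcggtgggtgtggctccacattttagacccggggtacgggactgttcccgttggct
Flt3l: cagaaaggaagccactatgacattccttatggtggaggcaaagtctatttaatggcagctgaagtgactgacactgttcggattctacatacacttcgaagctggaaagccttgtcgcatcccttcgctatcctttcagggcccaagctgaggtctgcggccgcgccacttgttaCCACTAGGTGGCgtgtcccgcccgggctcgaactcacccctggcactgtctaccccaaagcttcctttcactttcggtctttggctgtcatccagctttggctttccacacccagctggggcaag

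All 5 were moderate or weak regions. The Cd59b peak had fold 3.64 and stood at the 21.0th percentile of the K365T list, and 6 of the other 8 mutant lists held it. The Cldn1 peak had fold 4.60 and stood at the 48.7th percentile of the WT list, and the Gata1 peak had fold 3.88 and stood at the 35.4th. These WT peaks were held by 6 and 5 of the other mutant lists. Defb36 stood at the 32.1st percentile with 6 lists and Flt3l at the 4.48th with 1 list. No peak numbers were skipped at any of these 5 starts in the list without the peak. The calls concern the window shown and not the whole gene. With both lists taken at equal size, Cd59b had a peak within 1 kb of an annotated end in both, at percentile 85.0 in K365T and 92.3 in WT. Defb36 also had such a peak in both, at 22.0 in K365T and 55.5 in WT.

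Most open regions of K365T cells were also open in WT cells, while a larger share of WT regions had no K365T counterpart. In such bulk libraries, fewer cells with an open region and a less open region in every cell cannot be told apart. In K365T, 127100 peaks were shared and 12480 were K365T-only, 8.94% of the list (8.79 to 9.09). In WT, 123066 peaks were shared (71.7%, 71.5 to 71.9) and 48653 were WT-only, 28.3% of the list. The K365T list covered 67.2 Mb and the WT list 86.1 Mb, and 59.8 Mb was common to both, 0.640 of their union. The unmatched peaks were weak and narrow: K365T-only peaks had a median fold of 3.75 and a median width of 234 bp, against 412 bp for shared K365T peaks, and WT-only peaks had a median fold of 3.38 and a median width of 261 bp, against 496 bp for shared WT peaks.

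Shared regions also differed in extent. Among 115300 regions where 1 K365T peak met 1 WT peak, the median width was 413 bp in K365T and 483 bp in WT, and the K365T peak was the narrower in 68.9%. A WT peak spanned 2 or more K365T peaks 5223 times, and a K365T peak spanned 2 or more WT peaks 1368 times. Of K365T and WT, the list with the lower background coverage thus had the narrower peaks. All mutant lists had lower background coverage than WT, whose median peak width over the whole list was 401 bp. The median was narrower in K365T (385 bp), H455R (397 bp) and Q418R (400 bp). It was wider in R377H (403 bp), R448Q (409 bp), R342C (412 bp), R339Q (414 bp), R377C (414 bp) and S354F (426 bp). The part of depth in these widths was not tested.

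The unmatched share fell with strength in both directions. Among K365T peaks, taken from the weakest 20% to the strongest 20%, the K365T-only share was 21.0%, 15.6%, 6.54%, 1.50% and 0.0896%. Among WT peaks the WT-only share over the same steps was 62.6%, 47.8%, 25.3%, 5.66% and 0.303%. At the top of the lists the difference came down to 25 of 27916 K365T peaks and 104 of 34343 WT peaks. The WT-only share there, 0.303%, was 3.90% when a reciprocal overlap of 50% was asked for and 0.136% with both lists taken at equal size. Leaving out peaks at skipped numbers, 23 K365T-only and 99 WT-only peaks remained in the strongest 20%.

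**Figure D1:**
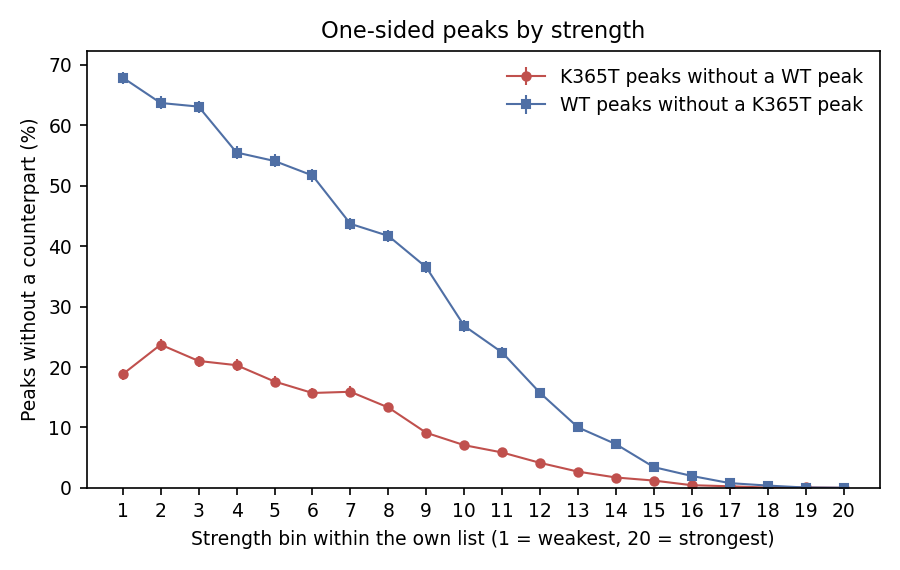
Share of peaks without a counterpart (y axis, %) in 20 equal bins of strength within the own list (x axis), for K365T peaks (circles) and WT peaks (squares), with exact 95% intervals for counting error. The K365T share stays at or under 23.7% and is 0 in the strongest bin, and the WT share falls through the bins to 0.0116%.

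Because the lists differ in length, the strongest peaks of each were also compared, as many as the shortest list of the series (R339Q) holds. At equal size the shares were close: 19637 K365T peaks (16.2%) had no WT counterpart and 22392 WT peaks (18.5%) had no K365T counterpart. The lowest fold kept was 3.34 in K365T and 3.61 in WT. The same shares were 16.3% and 16.0% for S354F, a substitution in the same zinc finger, and 16.8% and 17.5% for R342C, a list of nearly the same length. Over 94529 regions where a K365T peak met a WT peak 1 to 1 in these lists, the ranks correlated with a Spearman rho of 0.834, a description across regions that share both libraries. The rho was 0.945 for regions within 1 kb of where a protein-coding gene is annotated to begin or end (gene-end peaks below), and 0.801 both for regions inside genes and for intergenic ones.

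Large shifts in rank went both ways. Of the 94529 regions, 9226 stood more than 20 percentile points higher in K365T and 9979 more than 20 points lower, and past 40 points the counts were 1490 and 1836. Of the 5 greatest rises, 4 are given here. A region inside Srd5a2, a steroid reductase gene, on chromosome 17 had fold 10.5 and a width of 530 bp in K365T, against fold 3.74 and 204 bp in WT, the 84.5th percentile against the 3.62nd. The other 8 mutants placed it between the 26.3rd and the 91.2nd percentile. WT was thus below every mutant list at this region. The others were inside Itfg1 on chromosome 8 (85.3 in K365T, 3.62 in WT), far from Crim1 on chromosome 17 (84.5 in K365T, 3.62 in WT) and at a gene end of Igsf10 on chromosome 3 (84.0 in K365T, 3.62 in WT).

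The greatest falls lay on other chromosomes, and 4 of 5 are given here. A region 60.7 kb from Lacc1 on chromosome 14 had fold 3.34 in K365T and 10.4 in WT, the 0.723rd percentile against the 81.9th, and 5 of the other 8 lists held it. The other falls were 351 kb from Basp1 on chromosome 15 (12.6 in K365T, 92.4 in WT), 222 kb from Calb1, a calcium-binding protein gene, on chromosome 4 (6.49 in K365T, 85.5 in WT) and inside Zfp933 on chromosome 4 (6.49 in K365T, 84.5 in WT). These 8 regions were picked as the extremes of the same contrast, so their shifts are a description.

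The strongest K365T-only peaks lay inside genes or far from them, and most were held by other mutants. A peak inside Cacna2d3, a calcium channel subunit gene, on chromosome 14 (29410957 to 29411312) had fold 12.0, the 90.8th percentile of K365T, with the nearest WT peak 21.7 kb away, and 6 other mutant lists held it. A peak inside Camkmt, a calmodulin methyltransferase gene, on chromosome 17 (85395527 to 85396023) had fold 12.0 and was held by 7 others. The next by strength, 87.5 kb from Ankrd28 on chromosome 14 with fold 11.8, was in no other list, but WT and all 8 other lists skipped numbers at that place. Another lay inside Ttc21b, a gene of transport within cilia, on chromosome 2 (66219027 to 66219340) with fold 11.8, and R377H and R448Q held it. Another 5 of the 10 strongest had folds of 9.80 to 11.1. They lay inside Aff3 on chromosome 1, Spast, which encodes a microtubule-severing enzyme, on chromosome 17, Grip1 on chromosome 10 and Slit3, an axon guidance gene, on chromosome 11, and 34.4 kb from Dmrt2 on chromosome 19. All 8 other mutant lists held the Spast peak, with WT alone lacking it.

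The strongest WT-only peak needs care. It had fold 16.2, the 97.2nd percentile of WT, and covered the start of Trmt10c, a gene of mitochondrial transfer RNA processing, on chromosome 16 (56037380 to 56038017). K365T skipped 3 numbers at this place, and all 8 other mutant lists skipped numbers there too, so whether K365T cells lacked the peak is not known. The next, 25.5 kb from Pfkp, a phosphofructokinase gene, on chromosome 13 (6674552 to 6675431), had fold 13.9, the 94.5th percentile. All 8 other mutants held it, and K365T had no peak within 7.51 kb and no skipped number. A peak inside Tjp1, which encodes a tight junction scaffold, on chromosome 7 (65394713 to 65395272) had fold 12.6, and K365T had another peak 0.296 kb away. A peak 57.9 kb from Ccdc178 on chromosome 18 had fold 12.4 and was held by 7 other mutants, and a peak 55.7 kb from Pabpc6 on chromosome 17 had fold 11.5 and was held by 4. The other 5 had folds of 10.9 to 11.4 and lay inside Zdhhc14, a palmitoyltransferase gene, Flacc1, Iqschfp and Abca16, a lipid transporter family gene, and 10.7 kb from Vmn1r208, a vomeronasal receptor gene. At Zdhhc14, Flacc1 and Iqschfp a K365T peak lay 0.495 kb, 0.232 kb and 0.438 kb away. At Iqschfp K365T also skipped 1 number.

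Set against the other 8 mutants, a minority of the unmatched peaks belonged to K365T alone. Of the 12480 K365T-only peaks, 2396 (19.2%) were in none of the other lists and 246 (1.97%) were in all 8, so that WT alone lacked them. Of the 48653 WT-only peaks, 9310 (19.1%) were in none of the 8 and 2036 (4.18%) were in all 8. The 2396 K365T peaks in no other list were 1.72% of the K365T list. The 2036 WT peaks missing from K365T alone were 1.19% of the WT list. Among the other 8 mutants, the WT peaks missing from 1 mutant alone numbered from 274 (R377C) to 3889 (R339Q). All of these comparisons share the WT list. The peaks of the strongest 20% were spread otherwise: 1 of 25 K365T-only peaks was in no other list, and 45 of 104 WT-only peaks were in all 8. These 45 were 0.131% of the WT peaks in the strongest 20%. Of those strong WT peaks S354F lacked 0.215% and R342C 0.221%, so nearly all of them were held by these lists. The 1 K365T peak is that near Ankrd28 with skipped numbers. The strongest 5 WT peaks missing from K365T alone lay near Pfkp and inside Zdhhc14, Flacc1, Abca16 and Etl4, the last on chromosome 2 (20294585 to 20294934) with fold 10.5, and none lay at skipped numbers of K365T. The strongest peaks held by K365T alone, besides that near Ankrd28, were inside Tacc2, a microtubule-associated protein gene, on chromosome 7 with fold 8.36, again at skipped numbers of WT, inside Dtd1 on chromosome 2 (144724732 to 144725026) with fold 8.33, 17.9 kb from Glis1, a zinc finger transcription factor gene, on chromosome 4 (107652970 to 107653279) with fold 7.89, and at a gene end of Ttc21b on chromosome 2 (66184495 to 66184788) with fold 7.80.

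**Figure D2:**
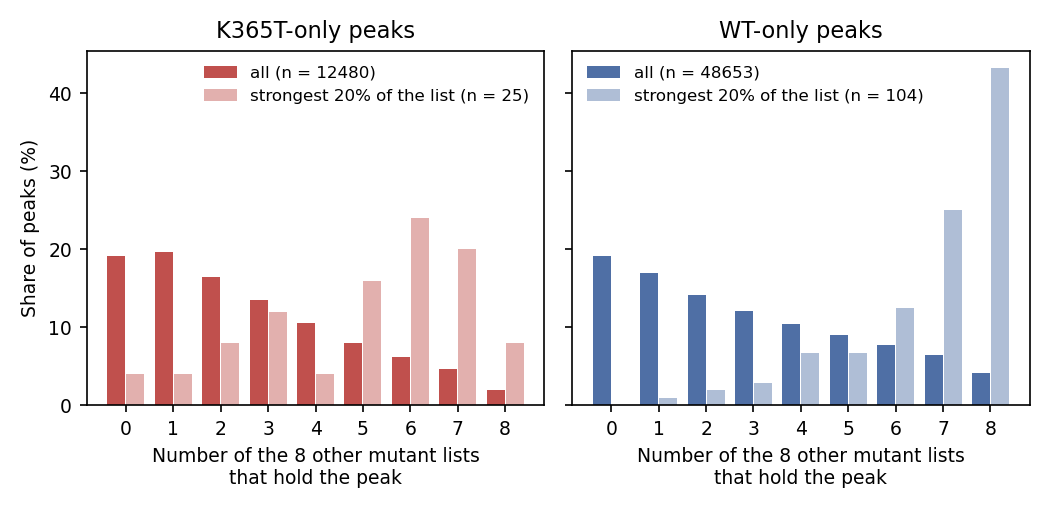
Share of K365T-only peaks (left) and WT-only peaks (right) on the y axis (%) by how many of the 8 other mutant lists hold them (x axis), for all such peaks (full colour) and for those of the strongest 20% of the list (pale). Of all K365T-only peaks 19.2% are in no other list, and of strong WT-only peaks 43.3% are in all 8.

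The WT peaks missing in K365T overlapped those missing in other mutants in part. S354F also lacked 29686 of them, 61.0% of the peaks missing in K365T and 71.1% of those missing in S354F. Of all WT peaks, S354F lacked 24.3%. R342C also lacked 30535, 62.8% of the peaks missing in K365T and 68.0% of those missing in R342C, and it lacked 26.1% of all WT peaks. These comparisons share the WT list. Of the K365T-only peaks, S354F held 30.3%, R342C 26.8%, R448Q 52.1% and R377H 41.1%. Of all K365T peaks, the same lists held 84.8% (S354F), 82.7% (R342C), 85.5% (R448Q) and 85.2% (R377H).

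Regions at gene ends were matched more often than other regions of the same strength. Among K365T peaks, the K365T-only share was 3.71% at gene ends, 9.50% inside genes and 10.2% between genes, and 4.98%, 8.70% and 10.3% when each class was weighted to the same strength. Among WT peaks, the WT-only share was 13.6% at gene ends, 32.6% inside genes and 27.9% between genes, and 18.2%, 29.9% and 28.5% at equal strength. The gap between gene-end and intergenic WT peaks was -10.4 percentage points at equal strength. It was below 0 on each of 20 chromosomes, from -18.5 on X to -5.16 on chromosome 11, with Y left out for its few peaks. The gap was -9.91 points in S354F and -9.15 points in R342C against the same WT list. Gene ends were few among the strong unmatched peaks: 0 of the 25 strong K365T-only peaks and 3 of the 104 strong WT-only peaks were gene-end peaks. Among all WT peaks of the strongest 20%, matched or not, 24.4% were gene-end peaks. In the whole K365T list the share was 14.6%.

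Distance to the nearest annotated gene start gave the same order in finer steps, with chromosome 18 left out. At equal strength, 4.38% of K365T peaks with a start inside them were K365T-only, 6.02% of those up to 1 kb away, 7.29% at 1 to 10 kb, 9.25% at 10 to 50 kb, 11.3% at 50 to 200 kb and 11.8% beyond. For WT peaks the WT-only shares at equal strength were 12.0%, 18.8%, 26.4%, 29.3%, 31.1% and 32.7%. Width also went with matching at equal strength. WT peaks of 200 to 257 bp were missing in 53.4% of cases and those of 709 to 2988 bp in 5.95%. The parts of width and of location in these shares were not separated.

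**Figure D3:**
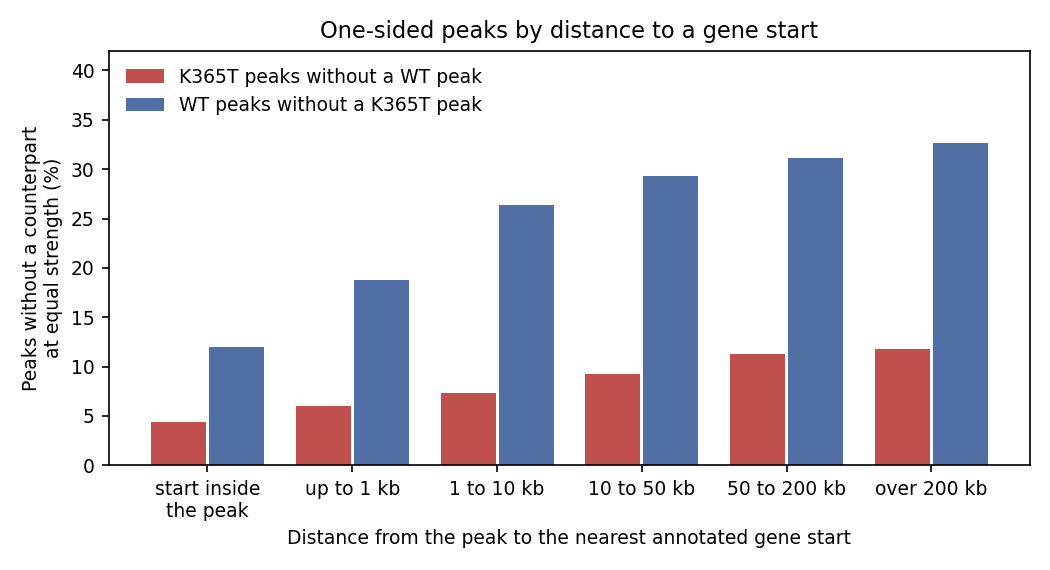
Share of peaks without a counterpart (y axis, %), weighted to equal strength, by distance to the nearest annotated gene start (x axis), for K365T peaks (left bar of each pair) and WT peaks (right bar). K365T bars rise along the axis to 11.8% and WT bars to 32.7%. Chromosome 18 is left out.

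Gene-end peaks were found for 15078 genes in K365T and for 15483 in WT, of 21887 genes that code for proteins. A gene-end peak was in K365T and not in WT for 168 genes (1.11% of those with a K365T peak), and in WT and not in K365T for 573 genes (3.70% of those with a WT peak). For 66 of the 573 a K365T peak overlapped the WT peak and ended just outside the window. Skipped numbers of the list without the peak lay at an end of 7 of the 168 genes and of 27 of the 573. The genes concerned had weak peaks: the strongest gene-end peak of the 168 had a median percentile of 24.2 in K365T, and that of the 573 a median percentile of 26.6 in WT. Over 14261 genes with a gene-end peak in both equal-size lists, the peak stood higher in K365T for 9430 and lower for 4830, with a median difference of 1.40 percentile points. In the whole lists, which are of unequal length, the direction turned: of 14910 genes, 5941 stood higher in K365T and 8969 lower, with a median difference of -0.68 points. No direction over groups of genes is therefore read from these ranks, and the percentiles of genes below are those of the whole lists.

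The strongest K365T-only gene-end peaks stood at the 63.2nd to 74.7th percentile of K365T, none at skipped numbers of WT. They lay at Ttc21b, Uba1y, Gm9, Slc3a1, an amino acid transport gene, Gpnmb, Exog, a mitochondrial nuclease gene, Art4, Rgs9, a G protein regulator gene, Plrg1, a splicing factor gene, and Lypd9. At Uba1y, Gm9 and Lypd9 WT had no gene-end peak at all, and at the other 7 it had another. The Gm9 peak on chromosome X (37210951 to 37211731, fold 7.58) was in all 8 other mutant lists, and those at Ttc21b, Gpnmb and Exog were in none of them.

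The strongest WT-only gene-end peaks stood at the 73.8th to 97.2nd percentile of WT. Besides Trmt10c, 2 of the 10 genes, Brox and Aida, share 1 peak on chromosome 1 (183296446 to 183298191, fold 7.91), at which K365T and all 8 other mutant lists skipped numbers. The others were Cklf, a chemokine-like gene (fold 10.1), Spata31d1b, a gene of the testis (fold 8.94), Slc26a2, a sulfate transporter gene (fold 7.90), Dbndd2 (fold 7.87), Adam2, a sperm surface protein gene (fold 7.47), Fam13b (fold 7.33) and Pdcd4, a translation inhibitor gene (fold 7.22). K365T had no gene-end peak at Spata31d1b, Adam2, Fam13b and Pdcd4, and another one at Cklf, Slc26a2, Dbndd2, Brox and Aida. All 8 other mutants held the peaks at Spata31d1b, Dbndd2, Adam2 and Pdcd4.

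Most genes that define the stem cell state had a gene-end peak in both groups. All 18 of the 20 listed naive pluripotency genes that had a gene-end peak had it in both lists, and Dppa3 and Nr5a2 had none in either. Over all genes 3.70% of those with a WT gene-end peak had none in K365T, so a count of 0 of 18 does not set these genes apart. By percentile, 13 stood higher in K365T and 4 lower in the equal-size lists, and 8 stood higher and 10 lower in the whole lists. Zfp42, a marker of naive cells, had fold 10.6 in K365T and 11.2 in WT, Klf5 had 17.7 in K365T and 17.0 in WT, Sox2 had 7.60 in K365T and 6.29 in WT, Esrrb had 5.65 in K365T and 4.71 in WT, and Nanog had 5.29 in K365T and 5.77 in WT. Pou5f1 had a weak gene-end peak in both, at the 14.7th percentile in K365T and the 3.78th in WT. The gene with the widest gap was Nr0b1 on chromosome X, at the 35.6th percentile in K365T and the 66.0th in WT. The label of embryonic stem cells thus matched these markers, but an open gene end does not show a cell type: 7 of 10 fibroblast markers, 5 of 8 primitive endoderm markers and 7 of 9 trophoblast markers also had gene-end peaks in K365T, against 7, 5 and 8 in WT.

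Ctcf itself had a gene-end peak of fold 8.80 in K365T, the 80.0th percentile, and of 9.38 in WT, the 84.0th, with 7 peaks in the gene in K365T and 10 in WT. Peaks of the endogenous gene and of the transgene cannot be told apart. Of 19 listed genes of CTCF and cohesin, 17 had a gene-end peak in K365T and 18 in WT. The difference was Rad21, a cohesin subunit gene, with a WT peak of fold 4.16 at the 40.7th percentile (chromosome 15, 51961432 to 51961701) held by 1 other mutant. The strongest peak of Rad21, inside the gene as annotated, was present in both, with fold 12.2 in K365T and 10.5 in WT. Smc1a, Wapl and Rec8, which encode a cohesin subunit, the cohesin release factor and a meiotic cohesin subunit, had folds of 14.8, 12.5 and 17.8 in K365T and of 16.1, 12.9 and 16.9 in WT. All 12 listed chromatin remodeller genes had a gene-end peak in both lists, with Smarca4 at fold 10.4 in K365T and 10.5 in WT and Brd9 at 8.57 in K365T and 11.2 in WT.

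**Figure D4:**
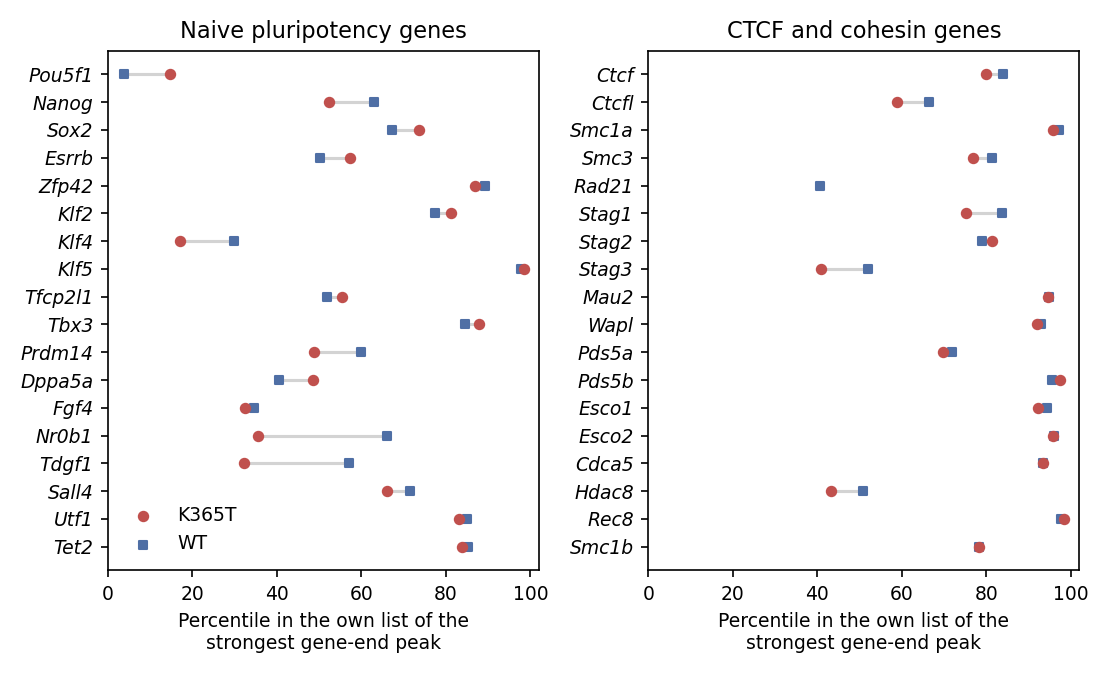
Percentile within the own list of the strongest gene-end peak (x axis) for the naive pluripotency genes (left) and the CTCF and cohesin genes (right) with such a peak, K365T as circles and WT as squares joined by a line. Naive pluripotency genes have both marks, and Rad21 has the WT mark alone.

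Hox and protocadherin clusters, which hold well known CTCF sites, differed at several weak gene ends. Of 35 Hox genes with a WT gene-end peak, 4 had none in K365T: Hoxa2, Hoxd4 and Hoxd11, with weak WT peaks at the 3.32nd, 30.7th and 6.76th percentile, and Hoxc12, whose WT peak a K365T peak overlapped. Hoxc4 had a gene-end peak in K365T and not in WT, at the 57.0th percentile, which a WT peak overlapped. The clustered protocadherins are the family of neuronal adhesion proteins whose choice of promoter depends on CTCF. Of 33 such genes with a WT gene-end peak, 5 had none in K365T. These were Pcdha1, Pcdhb10, Pcdhb11, Pcdhb17 and Pcdhb21, at the 10.8th to 35.4th percentile, and a K365T peak overlapped that of Pcdhb17. Pcdha4 had a gene-end peak in K365T alone, of fold 3.34 at the 13.8th percentile. Of genes with a WT gene-end peak, 11.4% of the Hox and 15.2% of the protocadherin genes had none in K365T. These shares stand beside 3.70% over all genes with such a peak. For the 20% of genes with the weakest WT gene-end peaks the share was 16.7%, and for the next 20% it was 1.14%. Many protocadherin genes share a gene-end peak.

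Other groups differed at few genes. Among 25 imprinted genes, 19 had a gene-end peak in each list and the same 19 had it in both. Zim1, an imprinted zinc finger gene, had the strongest, with fold 26.1 in K365T and 27.4 in WT. Kcnq1ot1, an imprinted noncoding RNA gene, had fold 14.7 in K365T and 16.5 in WT, and Grb10 had 4.43 in K365T and 5.84 in WT. H19 and Igf2 had none in either list. The 20 ribosomal protein genes, the 20 cell cycle genes and 11 mesoderm genes had gene-end peaks in both lists, and the 9 genes of the cleavage-stage-like state, Zscan4c among them, had none in either. Of 11 neural genes, Pax6 had a gene-end peak in WT alone, at the 8.52nd percentile, while a stronger peak inside the gene had fold 8.29 in K365T and 9.39 in WT. Of the trophoblast genes, Elf5 had one in WT alone, at the 24.8th percentile. Otx2, a gene of primed cells, had a gene-end peak of fold 6.97 in WT alone, which a K365T peak overlapped.

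Outside chromosome 18, 242 gene start windows were open in K365T alone and 638 in WT alone (3.78% of windows with a WT peak). Another 16222 were open in both and 15715 in neither. Windows open in a single list were poorer in GC than those open in both: the median was 52.0% in K365T alone, 52.0% in WT alone and 60.7% in both, and 46.3% in neither. The median number of CpG pairs was 6 in K365T alone, 5 in WT alone, 19 in both and 3 in neither. At like WT strength this went on. Of windows whose WT peak was in the weakest 20%, 53.8% of those with under 50% GC (46.3 to 61.1) and 32.6% of the others (29.2 to 36.2) had no K365T peak, and in the middle 20% the shares were 15.7% (11.7 to 20.4) and 2.87% (2.05 to 3.90). In the middle 20% they were 18.8% and 2.50% for S354F, and 17.4% and 3.01% for R342C.

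The CTCF core shown above was in 0.413% of windows open in K365T alone (1 window, 0.0105 to 2.28), 0.627% of those open in WT alone (4 windows, 0.171 to 1.60), 0.481% of those open in both and 0.326% of all windows. The intervals of the groups overlap at these counts. A looser form of the core, which every match of the core also fits, was in 1.65% of windows open in K365T alone, 2.19% in WT alone, 3.98% in both and 2.43% of all. An ETS motif, CCGGAAGT, which does not overlap these forms in letters, was in 5.37% of windows open in K365T alone (2.89 to 9.01), 1.72% in WT alone (0.864 to 3.06), 6.86% in both and 3.89% of all. A YY1 motif, AANATGGC, was in 5.37% of windows open in K365T alone (2.89 to 9.01), 3.29% in WT alone (2.05 to 4.99), 7.22% in both and 6.04% of all. An NRF1 motif, GCGCATGC, was in 1.24% of windows open in K365T alone (0.256 to 3.58), 1.10% in WT alone (0.442 to 2.25), 4.78% in both and 2.71% of all. The shares above were not matched for strength. With a WT peak in the weakest 20%, YY1 was in 3.60% of windows in WT alone and 3.70% in both. In the next 20% it was in 2.00% and 6.14%. In the same order the looser core was in 1.20% and 4.23%, then 3.00% and 2.05%. ETS was in 0.901% and 3.70%, then 2.00% and 3.07%, and NRF1 in 1.80% and 2.99%, then 0% and 4.48%. GC was not matched in these shares. A match is a run of letters and not a measured site, and the sequence under peaks away from gene starts was not used here.

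The K365T list was not spread over the chromosomes like the WT list. Chromosome 1 held 7.62% of K365T peaks and 6.54% of WT peaks, and chromosome 11 held 8.02% of K365T peaks and 7.16% of WT peaks. Against the median of the other 8 mutants the K365T share was 1.16 times on chromosome 1, 1.11 times on chromosome 11, 1.07 times on chromosome 3 and 1.05 times on chromosome 8, and 0.927 times on chromosome 12 and 0.940 times on chromosome 16. For WT the ratio was 0.992 on chromosome 1 and 0.989 on chromosome 11. The excess ran along both chromosomes, in the 5 Mb segments that held a median of at least 50 peaks. The log2 ratio of K365T to the median of the other mutants was at least 0.00 in 35 of 35 such segments of chromosome 1. It was at least 0.07 in 25 of 25 such segments of chromosome 11, against medians of -0.11 on chromosome 12 and -0.13 on chromosome 16.

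The unmatched peaks followed these shares. On chromosome 1, 14.9% of K365T peaks were K365T-only, against 9.07% for peaks of the same strength over the genome, and 21.0% of WT peaks were WT-only, against 27.3%. On chromosome 11, the values were 12.1% of K365T peaks, against 9.75%, and 21.8% of WT peaks, against 30.1%. On chromosome 12, 6.80% of K365T peaks were K365T-only and 32.7% of WT peaks WT-only. Shared regions moved likewise, with a median K365T minus WT difference in percentile of 1.71 points on chromosome 1, 2.19 on chromosome 11 and -0.88 on chromosome 13. Some other mutant lists had a like share, 8.12% on chromosome 1 in R448Q and 8.61% on chromosome 11 in R377H. The number of chromosome copies was not measured, and its part in these values was not tested.

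**Figure D5:**
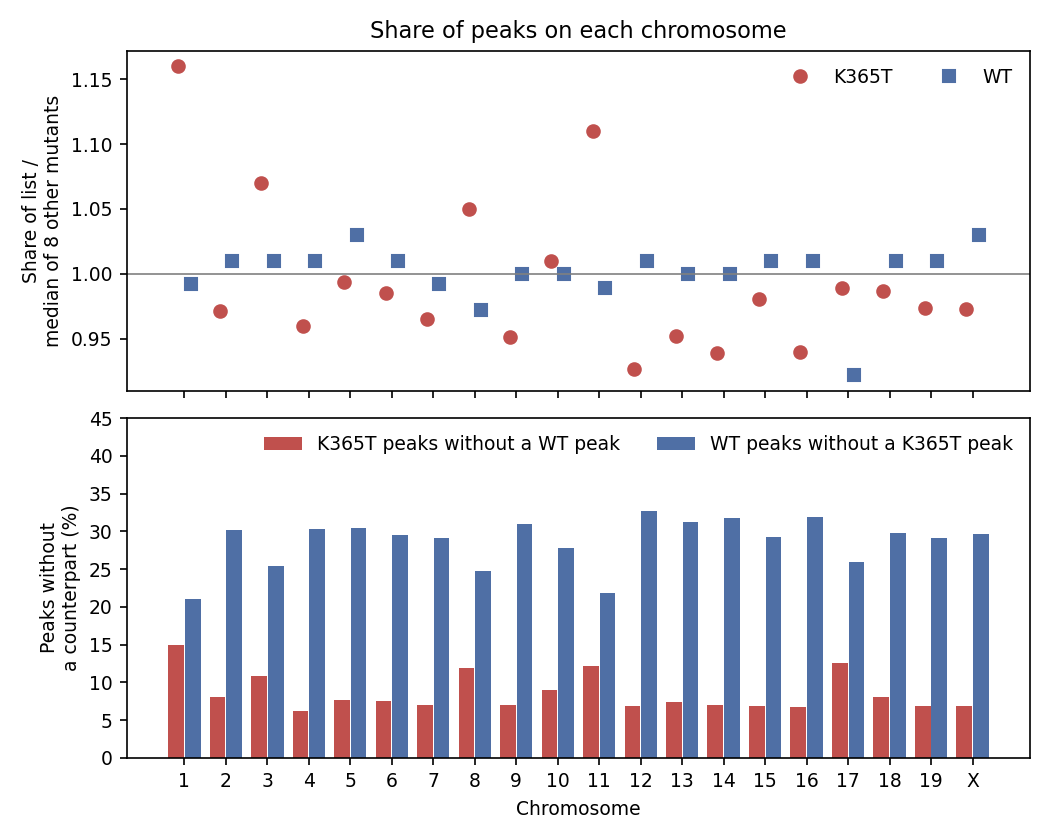
Top, share of the list on each chromosome (x axis, Y left out) divided by the median share of the 8 other mutants (y axis), for K365T (circles) and WT (squares). Bottom, share of peaks without a counterpart (y axis, %), with the K365T bar left of the WT bar: K365T stands highest at 1.16 on chromosome 1, where its K365T-only share is 14.9%.

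Chromosome 17 was divided, with the bounds below set after the values were seen. From 70 to 95 Mb, K365T had 1446 peaks and WT 1142, and the median of the other mutants was 1451. There 454 K365T peaks (31.4%) were K365T-only and 148 WT peaks (13.0%) WT-only. Below 70 Mb, 293 of 4553 K365T peaks (6.44%) were K365T-only and 1635 of 5740 WT peaks (28.5%) were WT-only. It was thus the WT list that stood apart from the others in the distal segment, and the K365T-only peaks in Camkmt and Spast and the rises far from Crim1 and in Srd5a2 lie in it.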

How the data were processed

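Omni-ATAC libraries of mouse embryonic stem cells were processed by the authors with Trim Galore, Bowtie2, MACS2 and deepTools on build mm10, per the submitters' processing notes, which give no versions. How duplicates and the shift of insertion sites were handled, and at which threshold peaks were called, is not stated. The deposited lists hold, per peak, a position, a name and 1 value made by the authors. The range of the deposited value, and the even steps of part of its values, are those of MACS2's fold enrichment, the ratio of observed to expected coverage. Whole multiples of 1 step made up 28.3% of the K365T values and 30.5% of the WT values, and the background coverage rests on that step. Replicates were pooled by the authors, so depth per sample is unknown and no test between genotypes was run.

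Here peaks were compared by overlap of at least 1 bp, ranked within a list, and weighted to equal strength over 20 bins (Python 3.11.15, numpy 2.4.6, pandas 2.3.3, scipy 1.17.1). The overlap and weighting steps were tested on simulated lists. Genes, their ends and the start windows came from RefSeq tables of GRCm38.p6, which uses the same coordinates as mm10. Of 21887 protein-coding genes, 17492 had a start window, none of them on chromosome 18. The annotation of genes gives no strand, so a gene end is either end. Coordinates are 1-based.

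The members and the gene lists were chosen with earlier results of these data known. The text names the 10 strongest K365T-only and WT-only peaks, the 5 strongest held or missing in K365T alone, the 10 strongest unmatched gene-end peaks in each direction, every listed gene with a gene-end peak in 1 list, the 5 greatest rises and falls in rank, Ctcf and the stem cell markers. The alternatives were other overlaps, windows, bins, equal-size lists and chromosomes left out. The promoter windows shown depart from the rule: they are those with the CTCF core, chosen after their values were seen. A few peaks that this rule names are not reported here.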

Additional observations from a re-analysis of the deposited data

How the results depend on the processing

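No paired analysis was possible because both replicates of a genotype are in 1 list, and for the same reason no replicate could be left out. The share of WT peaks found in K365T, 71.7%, was 66.1% with an overlap of at least 50% of the WT peak, 64.6% with a reciprocal overlap of 50%, 81.5% in equal-size lists, 93.8% for the stronger 50% of WT peaks and 70.6% without chromosomes 1, 11 and Y. The WT-only share of the strongest 20% was 3.90% with the reciprocal overlap and 0.136% in equal-size lists. The K365T-only share, 8.94%, was 10.6% with an overlap of 50% of the K365T peak, 20.5% with the reciprocal overlap, 16.2% in equal-size lists, 1.63% for the stronger 50% and 8.10% without those chromosomes. The gap between gene-end and intergenic WT peaks stayed below 0, at -11.8 points within 500 bp, -9.01 within 2 kb, -7.97 with the reciprocal overlap and -8.16 in equal-size lists. Genes with a WT gene-end peak alone numbered 380 in equal-size lists and 573 in the whole lists. The K365T share of chromosome 1 was 1.13 times the median in the strongest 20% of peaks, and that of chromosome 11 was 1.08 times in equal-size lists. The cause of these moves was not tested, beyond the smaller or stricter sets that the alternatives use. The alternatives for the chromosome shares, and those without peaks at skipped numbers, were chosen after seeing the data. Without peaks at skipped numbers the WT share found was 71.9%, the strong WT-only share 0.288%, the K365T-only share 8.85% and the count of genes 546. K365T had the lowest background coverage, and the weakest 20% of peaks held 5849 of the 12480 K365T-only and 21487 of the 48653 WT-only peaks. The part of depth in this was not tested.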

Other observations

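Gene families outside the listed groups differed in how often their gene-end peaks were matched. Olfactory receptor genes, which encode odorant receptors and are mostly silent outside the nose, had a gene-end peak for 32 genes in K365T and 44 in WT. Of those 44, 16 (36.4%) had no K365T gene-end peak and no overlap, against 507 of 15483 genes (3.27%) over the genome. The olfactory peaks were weaker, with a median WT percentile of 50.8 against 84.7. Counting all peaks within 5 kb of an olfactory receptor gene, 64 of 204 WT peaks were missing in K365T (31.4%, exact 95% interval 25.1 to 38.2), against 23.7% for WT peaks of the same strength. The share was 27.5% in S354F and 29.9% in R342C. Vomeronasal receptor genes had 24 of 63 WT peaks missing in K365T (38.1%, 26.1 to 51.2), against 22.0% at the same strength, and the share was 28.6% in S354F and 27.0% in R342C. The counts are small, and these families were looked at after the data were seen. The intervals take peaks as independent, but missing peaks in olfactory receptor clusters also lay in runs, given below. How far the runs make up the olfactory share was not tested.

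Counts in other families are read against the 3.27% over all genes, and a count of 0 in a small family does not set it apart. None of 90 ribosomal protein genes, 46 proteasome genes, 37 cytochrome P450 genes and 19 Sox genes with a WT gene-end peak lacked a K365T counterpart, and 6 of 333 genes named Zfp did. Of 51 interleukin genes 8 did, and of 35 keratin genes 4 did.

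Missing WT peaks also came in runs. With WT peaks of the stronger 60% taken in order along the chromosome, the longest run missing in K365T was 8 peaks on chromosome 2 (111326377 to 112001505), in a cluster that holds Olfr1280 to Olfr1285. All 10 WT peaks of that span, weak ones included, were missing, with no K365T number skipped. On average, 3.75 of the other 8 mutant lists held a peak of this run, so K365T was not alone in lacking them. A run of 6 lay on chromosome 4 (118756928 to 118919055) in a cluster that holds Olfr1338, where all 7 WT peaks were missing. The longest runs of K365T-only peaks were 5 peaks on chromosome 17 (92604672 to 93053285), 145 kb from Adcyap1, and 4 peaks over Prox1, a homeobox gene, on chromosome 1 (190125423 to 190161061). The first of these lies in the segment of chromosome 17 from 70 to 95 Mb, where WT had 1142 peaks against a median of 1451 in the other mutants and 31.4% of K365T peaks were K365T-only.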
